A study of Mus musculus with 32 samples.

Results

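The 3 h response of the 10-day-old (P10) mouse brain to hypoxia-ischemia (HI) was measured on 3 arrays, out of 24 arrays that set HI against naive brain and 32 arrays in the series. NMRI pups had the right carotid artery ligated under isoflurane and then breathed 8% oxygen for 40 min. Each array carried RNA of the right forebrain hemisphere pooled from 6 HI pups in the red channel (Cy5) and, in the green channel (Cy3), a naive pool of 6 littermates which had neither ligature nor hypoxia and which the methods describe as matched for age, sex and time. The female-specific transcript Xist gave ratios of -0.15, 1.72 and 1.93 on arrays 1, 2 and 3. The Y-linked Ddx3y and Eif2s3y gave -1.18 and -0.94 on array 2, but -0.30 and 0.03 on array 3. The values of array 2 thus go against an equal sex make-up of its paired pools, and on array 3 only Xist does. None of these genes was called, and results without single arrays are given for many of the calls that changed. The pooled hemisphere had no olfactory bulb and was cut in front of the colliculi, so injured and spared tissue were measured together. For comparison, the same design served 5-day-old pups (P5) at 3 h and P10 pups at 6, 12 and 24 h, each array with a naive pool of its own. In these bulk samples, fewer cells of a type and less RNA per cell cannot be told apart, and because HI RNA was in the same dye on every array, dye and HI cannot be told apart within these arrays.

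A ligature of one carotid followed by low oxygen deprives one hemisphere of oxygen and glucose, and reflow restores both once the pup returns to air. Neurons that lose their energy supply depolarise, release glutamate and take up calcium, and within minutes calcium and MAP kinase signals switch on immediate early genes, whose promoters are poised for transcription and need no new protein. Slower programmes follow through other sensors: hypoxia-inducible factor (HIF) for low oxygen, heat shock factor and the unfolded protein response for damaged proteins, the kinase pathways that lead to ATF4 for amino acid and translation stress, nuclear factor kappa B (NF-kB) for inflammatory signals, and the glucocorticoid receptor for systemic stress.

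The promoters of 6 genes show the short motifs through which several of these programmes are known to act. They were taken from RefSeq on build GRCm38.p6 as the 250 bases before a transcription start, 5′ to 3′ on the gene's strand, and the capitals mark the motif found by a search of both strands. Maff, Btg2 and Egr2 are shown for the immediate early genes, Atf3 for stress signalling through ATF4, Cxcl1 for NF-kB and Slc2a1 for HIF, and the values of all 6 genes follow. In Maff (chr15:79347270-79347519, plus strand) and Btg2 (chr1:134079156-134079405, minus strand) the capitals mark the cAMP response element TGACGTCA, in Egr2 (chr10:67537619-67537868, plus strand) a serum response element, in Atf3 (chr1:191183334-191183583, minus strand) the amino acid response element TGATGCAA, read on the opposite strand, in Cxcl1 (chr5:90890995-90891244, plus strand) an NF-kB site, and in Slc2a1 (chr4:119108495-119108744, plus strand) the hypoxia response core ACGTG.
Maff: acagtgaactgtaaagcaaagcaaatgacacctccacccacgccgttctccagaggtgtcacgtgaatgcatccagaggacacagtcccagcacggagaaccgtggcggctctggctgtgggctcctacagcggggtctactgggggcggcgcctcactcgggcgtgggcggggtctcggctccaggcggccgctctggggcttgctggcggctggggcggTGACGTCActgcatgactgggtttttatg
Btg2: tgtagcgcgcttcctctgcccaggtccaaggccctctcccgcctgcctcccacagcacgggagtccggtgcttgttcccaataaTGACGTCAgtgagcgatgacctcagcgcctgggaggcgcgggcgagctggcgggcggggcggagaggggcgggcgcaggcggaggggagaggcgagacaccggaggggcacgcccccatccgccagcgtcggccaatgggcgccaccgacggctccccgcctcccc
Egr2: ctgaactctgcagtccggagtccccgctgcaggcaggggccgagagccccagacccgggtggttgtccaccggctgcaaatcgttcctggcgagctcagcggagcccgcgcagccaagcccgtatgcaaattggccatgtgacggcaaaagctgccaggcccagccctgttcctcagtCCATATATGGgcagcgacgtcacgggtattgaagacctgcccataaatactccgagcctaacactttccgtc
Atf3: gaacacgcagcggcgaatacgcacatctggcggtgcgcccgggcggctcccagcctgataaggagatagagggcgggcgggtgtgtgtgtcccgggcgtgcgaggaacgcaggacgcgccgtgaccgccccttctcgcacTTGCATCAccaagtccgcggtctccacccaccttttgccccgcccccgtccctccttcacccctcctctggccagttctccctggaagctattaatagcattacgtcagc
Cxcl1: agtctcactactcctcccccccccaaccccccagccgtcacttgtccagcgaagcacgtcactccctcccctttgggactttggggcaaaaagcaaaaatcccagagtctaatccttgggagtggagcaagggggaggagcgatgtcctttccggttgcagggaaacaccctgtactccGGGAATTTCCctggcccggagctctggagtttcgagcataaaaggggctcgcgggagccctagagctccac
Slc2a1: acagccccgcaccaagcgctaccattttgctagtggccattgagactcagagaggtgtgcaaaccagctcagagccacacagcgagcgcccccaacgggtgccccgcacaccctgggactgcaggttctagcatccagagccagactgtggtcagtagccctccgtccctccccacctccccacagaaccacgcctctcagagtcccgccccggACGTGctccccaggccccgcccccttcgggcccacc
The cAMP response element of Maff lay 29 to 22 bases before this start, 1 of its 3 starts, and that of Btg2 lay 166 to 159 bases before its start. The serum response element of Egr2 lay 72 to 63 bases before the start, and 4 of its 5 starts had one within the window.

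Among 27025 mouse genes with a promoter in RefSeq, the cAMP response element occurred in 1.77%, and in 2 of the 19 induced immediate early genes that had a promoter (Maff and Btg2). The serum response element occurred in 1.62% of all genes and in 1 of the 19 (Egr2). The NF-kB site occurred in 0.414% of all genes and in 1 of 5 induced chemokine genes (Cxcl1). The hypoxia response core is short and occurred in 18.5% of all genes, and in 5 of 8 induced HIF targets (Vegfa, Slc2a1, Pfkfb3, Ldha and P4ha2). The amino acid response element occurred in 0.918% of all genes and in 2 of 9 induced genes of the unfolded protein and integrated stress response list (Chac1 and Herpud1), besides Atf3, which was searched as an immediate early gene. The heat shock element, alternating GAA and TTC units (0.514% of all genes), was not found in the 3 induced heat shock genes that had a promoter. The sterol response element TCACNCCAC (1.22%) was not found in the 4 induced cholesterol genes that had one. At such shares, so few genes cannot show a lack of either motif. A match describes the letters in this window only.

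More genes were called as induced than as repressed at 3 h, by a margin that depended on the filters. With no signal filter 1190 genes were induced and 1050 repressed, and with no fold minimum 2379 and 1845. The main settings are used below. Of 15478 genes tested, 616 were induced (3.98%) and 256 were repressed (1.65%), where a call needed an adjusted p under 0.05 in limma's test across all genes and a change of more than 1.5-fold. Most inductions were small, with a median of 1.655-fold, but 118 genes rose at least 2-fold and 31 at least 4-fold. Repressions had a similar median of 1.648-fold, yet 43 genes fell at least 2-fold and 1 at least 4-fold. Another background correction (normexp, with an offset of 50 added to both channels, followed by loess) lowers the ratios of dim probes by construction. It left 266 induced and 79 repressed genes, and the named list members that lost their calls are given with the lists. Most named genes that lost their calls with the dye bias taken out are given at the end, under the processing. The log2 ratios of the 3 arrays correlated at 0.655, 0.546 and 0.73 across probes, which are not independent replicates. Their standard deviations were 0.354, 0.404 and 0.422, and over all probes tested the median of the mean ratios was -0.02. For the gene lists described in the following paragraphs, the background is the 11556 genes named by RefSeq, of which 4.26% were induced and 1.70% were repressed, with a median log2 ratio of 0.01 for their brightest probes. Below, values are log2 ratios of HI over naive, as the mean ± SD of 3 arrays, and signals are Agilent processed signals in arbitrary units, compared only within a probe.

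**Figure D1:**
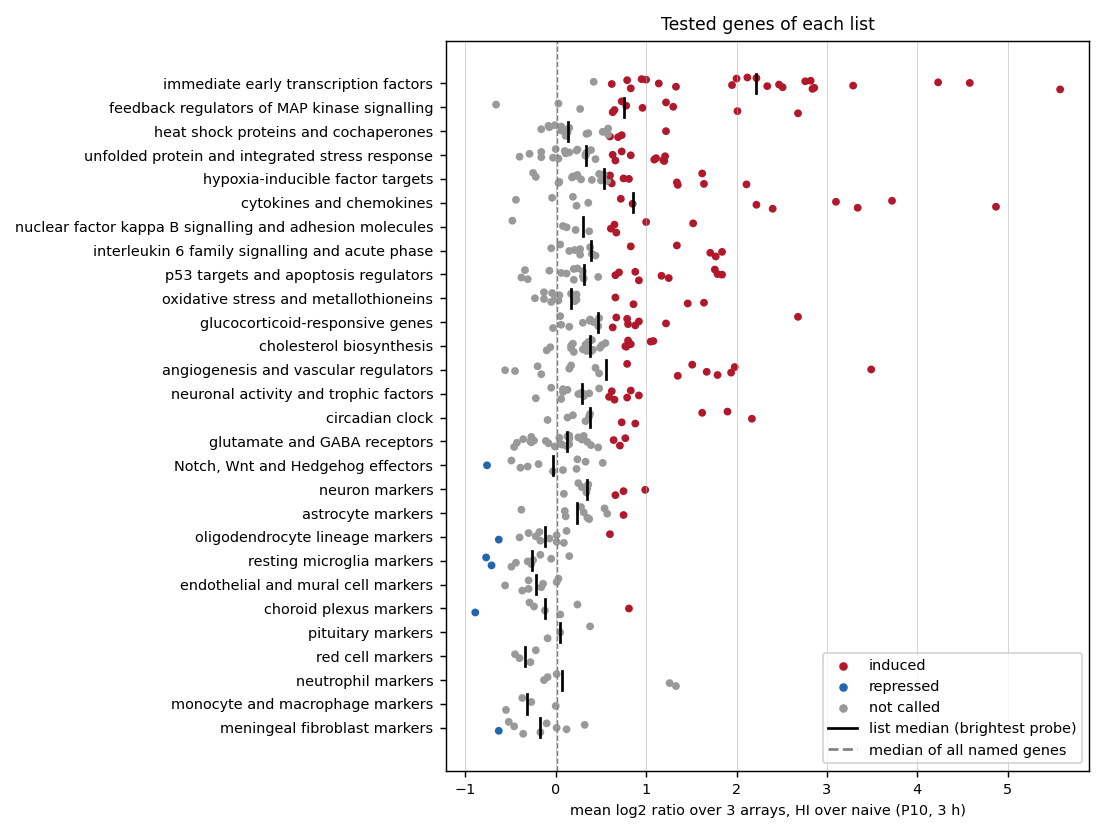
Each point is the mean log2 ratio (HI over naive, 3 arrays, P10 at 3 h) of 1 tested gene, grouped by gene list, in red if induced, blue if repressed and grey if not called; the black bar is the median of the list's brightest probes and the dashed line the median of all named genes, 0.01. The immediate early genes stand farthest to the right with a list median of 2.22, and the blue points sit at the foot, in the lists of cell type markers and of Notch, Wnt and Hedgehog effectors.

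Immediate early transcription factors were the most strongly induced group: 22 of 23 tested genes were induced and none was repressed, with a list median of 2.22. Fos, a subunit of the AP-1 transcription factor, had naive signals of 62.8, 78 and 55.1 on the 3 arrays and HI signals of 2334, 3561 and 3450. Every HI pool was thus far above every naive pool, and Fos rose 47.7-fold (5.58 ± 0.38, n = 3, adjusted p = 4.19e-11), the largest induction of a called gene. Atf3, a stress-induced factor of the ATF family whose promoter is shown above, went from 70.1, 47.9 and 52.3 to 1710, 1210 and 1150. This is a 23.8-fold rise (4.58 ± 0.10, adjusted p = 7.34e-09), with little spread between arrays. Maff, a small MAF protein that pairs with other leucine zipper factors, was not well above background in the naive pools (21, 18.9 and 20.6). It reached 443, 345 and 350 after HI, a mean rise of 18.7-fold. Egr2, a zinc finger factor, had naive signals of 44.5, 51 and 36.7 and HI signals of 329, 402 and 592 (9.80-fold, 3.29 ± 0.62), array 3 giving the highest ratio.

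The partners of Fos rose with it. Jun had naive signals of 802, 686 and 652 and HI signals of 4910, 5280 and 5350, a 7.29-fold induction (2.86 ± 0.22). Fosb went from 66.4, 104 and 94.7 to 425, 718 and 784 (7.15-fold, 2.84 ± 0.19). In both genes the naive and HI ranges were far apart. Junb was not well above background in naive brain and had a mean rise of 5.71-fold, from 19, 19 and 18 to 93.8, 116 and 111. Jund (1.33 ± 0.19) and Fosl2 (0.83 ± 0.40) were the smaller members of the family. With normexp and loess Junb (0.50) and Fosl2 (0.43) were under 1.5-fold, as was Nr4a2 (0.46) of the next group. Ier3 (0.57, adjusted p = 0.114) and Ier5 (0.33) of the same list lost their calls too.

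The nuclear receptor Nr4a1, an early gene of calcium signalling, rose from 998, 1130 and 832 to 4530, 5350 and 6590 (2.47 ± 0.45). Its relative Nr4a2 reached 0.62 ± 0.31. The zinc finger factors Egr1 (2.34 ± 0.50) and Egr4 (1.95 ± 0.56) also rose on every array. Arc, which moves to active synapses and regulates glutamate receptor uptake, gave 2.12 ± 0.19, and Btg2, an antiproliferative gene, went from 93.4, 124 and 99.8 to 329, 488 and 461 (2.00 ± 0.20, adjusted p = 1.57e-08). Npas4, which is switched on by calcium entry in neurons, differed between the arrays: its ratios were 0.62, 0.38 and 2.43. Array 3 thus set its mean of 1.14 ± 1.12, and without that array the value was 0.50 (adjusted p = 0.182). Without array 3 Klf4 (0.94, adjusted p = 0.0564) and Nr4a2 (0.45, under 1.5-fold) lost their calls as well. Myc, with 0.42 ± 0.16 and an adjusted p of 0.035, was the only tested member that was not called, because its change was under 1.5-fold.

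**Figure D2:**
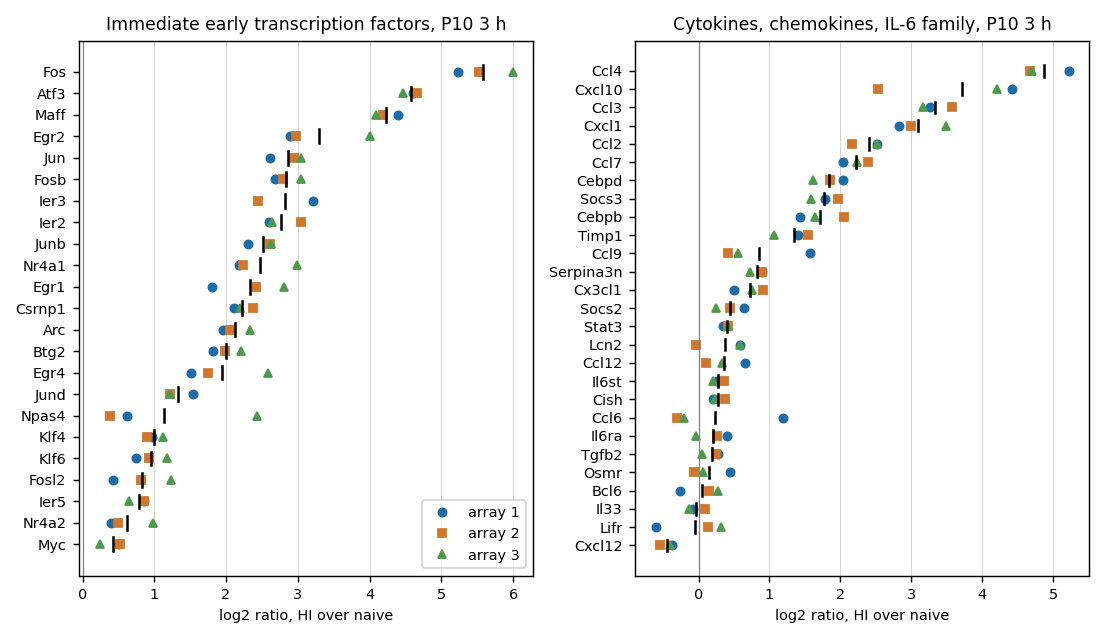
Log2 ratio of HI over naive on each of the 3 P10 arrays at 3 h, for immediate early transcription factors (left) and for cytokines, chemokines and the IL-6 family list (right), with a bar at the mean; genes are ordered by the mean. Fos lies between 5.23 and 5.99 and Ccl4 between 4.67 and 5.22, while the arrays spread widely for Npas4, Cxcl10 and Ccl9; Ier3 has 2 arrays only.

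Feedback regulators of MAP kinase signalling, which are induced by the pathway and dampen it, gave 9 induced genes of 12 tested and none repressed, with a list median of 0.75. Dusp1, a phosphatase that inactivates p38 and JNK, had naive signals of 139, 143 and 120 and HI signals of 826, 843 and 909. It rose 6.43-fold (2.68 ± 0.21) with no overlap between naive and HI pools. Dusp4 gave 2.01 ± 0.56, Dusp16 1.30 ± 0.13 and Errfi1, an inhibitor of the EGF receptor, 1.22 ± 0.25. Dusp6, a phosphatase of ERK, gave 0.65 ± 0.39 with the highest ratio on array 3, and without array 3 its 0.42 was under 1.5-fold. Spry2 was lower on every array (-0.66 ± 0.28) but did not pass the test (adjusted p = 0.0553). It was called with the replicate as a block (adjusted p = 0.011), with slide as a random block (0.0413) and in a fit of only the arrays compared (0.0266). Beyond the lists, Gem, a small GTPase that limits calcium channel activity, went from 70.2, 49.2 and 39.5 to 447, 349 and 420 (2.97 ± 0.39). Depp1, a FOXO target, had a mean rise of 5.92-fold from naive signals not well above background. Under normexp and loess Dusp4 fell to 0.53 and Depp1 to 0.46 (adjusted p = 0.127), and neither was called.

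Chemokines formed the next group of very large inductions, with 8 of 13 tested cytokines and chemokines induced and a list median of 0.85. Ccl4, a chemokine made by activated microglia and macrophages, had naive signals of 38.3, 32.8 and 30.8 and HI signals of 1430, 837 and 801. The induction was 29.2-fold (4.87 ± 0.31, adjusted p = 7.1e-08), below that of Fos only among called genes. Ccl3, its close relative, went from 45, 21.9 and 36.1 to 435, 261 and 326 (3.34 ± 0.21). Cxcl1, which attracts neutrophils, was not well above background in naive brain and had a mean rise of 8.60-fold, from 19.4, 17.7 and 12.4 to 138, 141 and 139. Ccl2, the main attractant of monocytes, went from 174, 83 and 77.9 to 997, 371 and 443 (2.40 ± 0.20). The highest naive pool was still below the lowest HI pool in each of these 4 chemokines. Cxcl10, an interferon-induced chemokine, had the widest spread of the group, with ratios of 4.42, 2.53 and 4.21 from naive signals of 6.31, 27 and 3.56, which were well above background on 1 array. Its size depended on the background: normexp and loess gave 0.63 (adjusted p = 0.394), and likewise Ccl7 gave 0.92 (adjusted p = 0.0914) and Ccl9 0.54 (adjusted p = 0.26). Ccl7 (2.22 ± 0.17) and the neuronal chemokine Cx3cl1 (0.72 ± 0.21) were also induced, whereas Ccl12 was not (0.36 ± 0.27, adjusted p = 0.559). Ccl9, at 1.57, 0.41 and 0.56, passed barely (adjusted p = 0.0498) and did not pass without any one of the arrays (adjusted p 0.352, 0.0704 and 0.0887 without arrays 1, 2 and 3). The cytokine genes Il1a, Il1b, Il6, Tnf and Lif were below the signal limit and were not tested.

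The list of NF-kB signalling and adhesion has 26 genes, of which 10 were tested. Of these, 5 were induced, with a list median of 0.30. Tnfrsf12a, the receptor of the cytokine TWEAK, went from 517, 430 and 433 to 1700, 1210 and 1100 (1.52 ± 0.19). The others were smaller: Cd14, a co-receptor for bacterial lipopolysaccharide, gave 1.00 ± 0.29, the inhibitor Nfkbia 0.67 ± 0.06, Tnfrsf1a, a receptor of TNF, 0.65 ± 0.24 and Tnfaip3, another inhibitor, 0.61 ± 0.23. These 4 depended on single arrays. The count was 3, 2 and 2 without arrays 1, 2 and 3: Nfkbia had adjusted p of 0.0911, 0.143 and 0.115 without them, Cd14 0.111 without array 1 and 0.0926 without array 3, Tnfrsf1a 0.0575 without array 2 (and 0.11 as a log2 ratio on its brightest probe), and Tnfaip3 0.0643 without array 2 and 0.0844 without array 3. In the interleukin 6 and acute phase list 5 of 14 genes were induced. The transcription factors Cebpd (1.84 ± 0.21) and Cebpb (1.71 ± 0.31) and the JAK-STAT inhibitor Socs3 (158, 162 and 151 to 541, 633 and 451, 1.77 ± 0.19) rose about alike, followed by the metalloproteinase inhibitor Timp1 (1.34 ± 0.25) and the astrocyte-secreted protease inhibitor Serpina3n (0.83 ± 0.10). Stat3 itself gave 0.40 ± 0.05 (adjusted p = 0.0921) and the receptor gene Osmr 0.15 ± 0.27. Normexp and loess ended the calls of Cd14 (0.58), Nfkbia (0.47), Tnfrsf1a (0.26) and Tnfaip3 (0.24) in the first list and of Timp1 (0.35) and Serpina3n (0.36) in the other.

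Targets of HIF were induced in 10 of 25 tested genes, with none repressed and a list median of 0.53. Adm, the vasodilator adrenomedullin, went from 75.8, 78 and 52.7 to 285, 289 and 305 (2.11 ± 0.37). Slc2a1, the glucose transporter of the blood-brain barrier and of glia, went from 507, 299 and 383 to 1480, 929 and 1290, a 3.13-fold rise (1.64 ± 0.10) with almost the same ratio on each array. Bhlhe40, a transcriptional repressor, gave 1.62 ± 0.18 and Pfkfb3, which speeds glycolysis, 1.34 ± 0.28. The glycolytic enzymes changed less. Eno1 gave 0.81 ± 0.15, Gapdh 0.75 ± 0.16 on the probe with the largest change (4 of its 7 probes were induced), and Ldha 0.60 ± 0.15, while Pkm (0.57 ± 0.08) and Pgk1 (0.50 ± 0.09) passed the test but not the 1.5-fold limit. The neuronal glucose transporter Slc2a3 gave 0.62 ± 0.10 and the collagen-modifying enzyme P4ha2 0.60 ± 0.06. The last called members lay near the limit: without array 2 Ldha had an adjusted p of 0.0512 and Slc2a3 a value of 0.58, and without array 3 P4ha2 had 0.56. Without array 1 Ldha was at 0.57, under 1.5-fold. By normexp and loess these 3 genes had 0.56, 0.47 and 0.32 for Ldha, Slc2a3 and P4ha2, under 1.5-fold.

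Among regulators of vessels, 8 of 16 genes were induced and none was repressed (list median 0.56). Ccn1, a matrix protein induced by growth factors and stretch, went from 146, 136 and 151 to 1640, 1720 and 1500, an 11.2-fold rise (3.49 ± 0.17, adjusted p = 1.6e-08). Klf2, which is induced by shear stress in endothelium, gave 1.98 ± 0.37, the metalloproteinase Adamts1 1.94 ± 0.57, the vessel-destabilising ligand Angpt2 1.79 ± 0.63 and the endothelial proteoglycan Esm1 1.67 ± 0.30. Plaur, the urokinase receptor (1.51 ± 0.18), and Plat, tissue plasminogen activator (0.79 ± 0.15), both of the plasmin system, rose as well. Vegfa, the growth factor through which HIF drives vessel growth, gave 1.35 ± 0.16 on the probe with the larger change and 0.65 on its brighter probe. After normexp and loess, Angpt2 (0.42), Esm1 (0.56), Plaur (0.49), Plat (0.58) and Vegfa (0.38) were no longer called. The receptors for Vegfa did not follow: Flt1 gave -0.56 ± 0.09 (adjusted p = 0.165) and Kdr -0.45 ± 0.10, a change under 1.5-fold. In the endothelial and mural cell markers 0 of 8 tested genes were called in either direction, with a median of -0.22, and the tight junction gene Cldn5 gave -0.37 ± 0.21 (adjusted p = 0.108).

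Heat shock genes responded in part, with 4 of 19 tested induced and a list median of 0.14. Hspa8, the constitutive HSC70 chaperone and one of the brightest transcripts, went from 55200, 47900 and 59000 to 120000, 140000 and 117000. It rose 2.33-fold (1.22 ± 0.29), and all 3 of its probes were induced. The co-chaperone Dnajb1 gave 0.73 ± 0.16. The small heat shock proteins Hspb1 (1.02, 0.55 and 0.48) and Hspb8 (1.02, 0.30 and 0.47) were highest on array 1, and without it neither passed (adjusted p = 0.147 and 0.21), nor did Hspb1 without array 2 (0.0551) or Hspb8 without array 3 (0.0552). Bag3 was close to the limits (0.58 ± 0.13, adjusted p = 0.0728), and Hsp90aa1 gave 0.13 ± 0.11. Normexp and loess ended the calls of Hspb1 (0.51) and Hspb8 (0.34). The inducible HSP70 gene Hspa1a was under the signal limit and was not tested.

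The unfolded protein and integrated stress response list had 9 induced genes of 26, none repressed, and a median of 0.33. Atf4, the factor at the centre of the integrated stress response, went from 16800, 11100 and 13600 to 36600, 29100 and 28600 (1.20 ± 0.17, adjusted p = 2.83e-08). Its target Ppp1r15a, which brings a phosphatase to the initiation factor eIF2 alpha, had ratios of 1.23, 1.18 and 1.23, and the naive and HI signals did not overlap in either gene. Other genes downstream of ATF4 were Trib3 (1.19 ± 0.32), Ddit4, an inhibitor of mTOR (1.11 ± 0.17), Chac1, which degrades glutathione (1.09 ± 0.40), the amino acid transporter subunit Slc3a2 (0.73 ± 0.16) and Ddit3, or CHOP (0.66 ± 0.11). The endoplasmic reticulum chaperone Hspa5 rose (0.83 ± 0.17) and so did Herpud1 (0.63 ± 0.20), whereas Xbp1 (0.33 ± 0.12) and Manf (-0.16 ± 0.07) were not called. Without array 2 Trib3 had an adjusted p of 0.0606 and Herpud1 a value of 0.52. Calls lost with normexp and loess were those of Trib3 (0.31), Ddit3 (0.53) and Herpud1 (0.53).

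Metallothioneins, which bind zinc and copper, gave the largest values in the oxidative stress list, where 4 of 17 genes were induced. Mt2 went from 5720, 6950 and 7540 to 25400, 16900 and 21300 (1.64 ± 0.45), and Mt1 gave 1.46 ± 0.30. The neuronal Mt3 gave no call (-0.05 ± 0.07, adjusted p = 0.767). Hmox1, heme oxygenase, gave 0.86 ± 0.25, and 0.73 without array 1 (adjusted p = 0.0555). Txnip, an inhibitor of thioredoxin, gave 0.66 ± 0.10, and 0.65 and 0.62 without arrays 1 and 2 (adjusted p = 0.0545 and 0.0738). Neither Hmox1 (0.42) nor Txnip (0.44) was called with normexp and loess.

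Of 22 tested p53 targets and apoptosis regulators, 9 were induced and none was repressed (list median 0.31). The growth arrest gene Gadd45g went from 3430, 2110 and 2820 to 12000, 6990 and 10100 (1.79 ± 0.06), and its relatives Gadd45b and Gadd45a gave 1.84 ± 0.16 and 0.66 ± 0.21. The death receptor Fas gave 1.76 ± 0.55 and the BH3-only protein Pmaip1, or NOXA, 1.25 ± 0.31. The anti-apoptotic Mcl1 gave 1.17 ± 0.12 on the probe with the larger change and 0.37 on its brightest probe, and the cell cycle inhibitor Cdkn1a gave 0.92 ± 0.26. Genes that promote and genes that oppose cell death thus rose, but Bax, the pore former of the mitochondrial route, was lower (-0.38 ± 0.07, adjusted p = 0.00299, a change under 1.5-fold), and Bbc3, or PUMA, gave 0.31 ± 0.04, also under 1.5-fold. Fas (0.44), Pmaip1 (0.49) and Gadd45a (0.22) were not called with normexp and loess.

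Genes that respond to glucocorticoids were induced in 8 of 19, with a list median of 0.47. Of the 8, 5 are also members of other lists here (Dusp1, Errfi1, Cdkn1a, Per1 and Nfkbia), and the other three were Pdk4, which holds back pyruvate oxidation (0.81, 0.78 and 0.80 on the 3 arrays), Angptl4, an inhibitor of lipoprotein lipase (0.79 ± 0.16), and the kinase Sgk1 (0.63 ± 0.16, and 0.54 without array 3). Pdk4 gave 0.23 with normexp and loess and was not called. Among clock genes 5 of 11 were induced. Nr1d1, the repressor REV-ERB alpha, went from 37.9, 50.3 and 79.3 to 183, 258 and 293 (2.17 ± 0.25). Nfil3, a repressor that competes with clock activators, went from 397, 302 and 393 to 1340, 1170 and 1550. Its ratio of 1.90 ± 0.12 had the same adjusted p as Fos, 4.19e-11. Per1 gave 0.42, 0.76 and 1.47, Cry2 0.73 ± 0.27, and the activator Arntl 0.33 ± 0.09, which is under 1.5-fold.

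Genes of cholesterol supply rose at 3 h: 6 of 24 tested were induced and none was repressed, with a list median of 0.38. Insig1, which holds the sterol sensor in the endoplasmic reticulum, went from 212, 223 and 252 to 452, 506 and 493 (1.08 ± 0.11). Enzymes and carriers followed at 0.83 ± 0.15 for Hsd17b7, 0.80 ± 0.08 for Stard4, 0.78 ± 0.33 for Lss and 0.77 ± 0.24 for Cyp51. Without array 2 Lss and Cyp51 did not pass (adjusted p = 0.116 and 0.147), nor did Cyp51 without array 1 (adjusted p = 0.0695). With normexp and loess none of the 5 named genes was called, Insig1 (0.57) and Hsd17b7 (0.54) being highest and Cyp51 (0.28) lowest.

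Activity-regulated and trophic genes of neurons beyond the transcription factors gave 6 induced genes of 18, with a list median of 0.29. The secreted peptide precursor Vgf went from 1730, 1340 and 1790 to 2950, 2840 and 3340 (0.92 ± 0.16). The prohormone convertase Pcsk1 gave 0.83 ± 0.36, the synaptic pentraxin Nptx2 0.79 ± 0.42, and the opioid precursor Penk 0.62 ± 0.31. Bdnf, the neurotrophin induced by synaptic activity, gave 0.19, 0.61 and 1.15, so that its mean of 0.65 came mainly from arrays 2 and 3. The scaffold gene Homer1 gave 0.59 on the probe with the larger change and 0.10 on its brightest probe (adjusted p = 0.537). Without array 2 the count fell from 6 to 2, as Pcsk1 (0.64), Penk (0.45) and Homer1 (0.52) were among the calls lost, and without array 3 Bdnf was at 0.40. Among glutamate and GABA receptors 3 of 27 were induced: the GABA receptor subunits Gabrb1 (0.77 ± 0.13) and Gabra2 (0.64 ± 0.23, and 0.54 without array 2) and the NMDA receptor subunit Grin1 (0.71 ± 0.11). Gria2, the subunit that keeps calcium out of AMPA receptors, gave -0.88, -0.26 and -0.25 (adjusted p = 0.0716). Of the genes named here, Pcsk1 (0.33), Nptx2 (0.24), Bdnf (0.32), Homer1 (0.37), Gabrb1 (0.33), Gabra2 (0.37) and Grin1 (0.58) lost their calls with normexp and loess.

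Markers of cell types were measured for the make-up of the tissue. Of 10 neuron markers, all tested, 3 were induced and none was repressed: the neurofilaments Nefm (0.99 ± 0.34) and Nefl (0.75 ± 0.14) and the splicing factor Rbfox3, or NeuN (0.66 ± 0.12, and 0.44 on its brightest probe). The list median was 0.35, and the summed signal of the list was 69066 to 86081 in naive and 74165 to 95588 in HI pools. The sum was higher in the HI pool on each array, and its part in the inductions of neuronal genes was not tested. Of 10 astrocyte markers only the glutamate transporter Slc1a2 was called (0.75 ± 0.26, and not without array 2 or 3, adjusted p = 0.15 and 0.119), while Slc1a3 gave 0.57 ± 0.09, Gfap 0.37 ± 0.36 (adjusted p = 0.274) and S100b -0.38 ± 0.08. Nefm (0.57), Rbfox3 (0.54) and Slc1a2 (0.48) were under 1.5-fold with normexp and loess.

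Resting microglia markers shifted the other way, with 0 induced and 2 repressed of 10 tested and a list median of -0.26. Gpr34, a receptor for lysophosphatidylserine, went from 1030, 866 and 634 to 554, 558 and 368 (-0.77 ± 0.13, adjusted p = 5.95e-06). P2ry13, a purine receptor, gave -0.52, -0.78 and -0.83. The related P2ry12 was lower by less (-0.49 ± 0.10, adjusted p = 0.0431, under 1.5-fold), and Tmem119 (-0.44 ± 0.37), Cx3cr1 (-0.27 ± 0.12) and Csf1r (-0.25 ± 0.01) did not pass. All 6 of these markers were below 0 on each array. The summed signal of the microglia list was 74662 to 106087 in naive and 57585 to 86463 in HI pools, and the ratio of the sums was above 0 on array 1 (0.13) and below 0 on arrays 2 and 3 (-0.35 and -0.37). In the oligodendrocyte lineage the myelin gene Mbp was just called on 1 of its probes (0.60 ± 0.16, and 0.39 with the dye bias taken out) and Olig2, the factor that defines the lineage, was repressed (-0.63 ± 0.10, from 200, 222 and 218 to 132, 132 and 149). Without array 2 neither was past 1.5-fold (0.56 and -0.57), nor was Mbp without array 3 (0.54). Olig2 too was under 1.5-fold with the dye bias taken out (-0.56). With normexp and loess both genes were under 1.5-fold (0.41 and -0.36), and P2ry13 gave -0.31 and was not called.

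Markers of cells from outside the brain parenchyma gave few calls. Neutrophil markers had 0 calls of 5 tested, with a list median of 0.07. The log2 ratio of their summed signals was 0.55, -0.15 and -0.35 on arrays 1, 2 and 3. The brightest probes weigh most in such a sum, so it does not speak for each marker. S100a8 (1.09, 1.30 and 1.60) and S100a9 (0.96, 1.02 and 1.79) were higher on every array but did not pass (adjusted p = 0.0768 and 0.0976). They did pass in a fit of only the arrays compared (0.0098 and 0.0178). There were 0 calls among 4 red cell, 4 monocyte and macrophage, and 3 pituitary markers tested, and the macrophage receptor Mrc1 gave -0.55 ± 0.12, under 1.5-fold. Of 9 meningeal fibroblast markers the collagen gene Col3a1 was repressed (-0.62, -0.62 and -0.64). Of 7 choroid plexus markers tested, the potassium channel subunit Kcne2 was repressed (-1.39, -0.77 and -0.51), the water channel Aqp1 was induced (0.81 ± 0.37) and 5 were not called. Aqp1 was at low signal, 106, 36.7 and 65.6 in naive pools, and was not called when a signal of 100 was asked on at least 2 arrays. Of 11 Notch, Wnt and Hedgehog effectors the Wnt receptor Fzd10 was repressed (-0.76 ± 0.17), and Id3 was lower by less than 1.5-fold (-0.49 ± 0.18). Col3a1 (-0.34), Kcne2 (-0.31), Aqp1 (0.10) and Fzd10 (-0.31) were not called with normexp and loess.

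The repressions with the lowest means, apart from Kcns3, were deepest on array 3. Among the 15 genes with the lowest called means, the ratios ran from -1.35 to -0.07 on array 1, from -2.43 to -0.13 on array 2 and from -3.90 to -1.37 on array 3. Their median naive signal was 8.12 and 5.96 on arrays 1 and 2 but 593 on array 3. The olfactory receptor gene Olfr357, the only gene that fell at least 4-fold, had naive signals of 7.63, 18.6 and 300 and ratios of -1.07, -2.43 and -3.60. Tent5d had naive signals of 7.01, 5.11 and 593, and the pattern was the same for F830045P16Rik, 1500012K07Rik, Olfr419, Ttll10, Zscan5b, Olfr235 and Sult2a6. Of 32 repressed genes with a signal of 100 on 1 array only, array 3 gave the lowest ratio in 31. When a signal of 100 on 2 of 3 arrays was asked, 226 genes (1.46% of 15496) were repressed and 610 (3.94%) were induced. Cttnbp2, Cpox and Pcdh9 had naive signals of 83.1 to 372 on arrays 1 and 2, but rested on array 3 as well: without it they gave -0.57, -0.13 and -0.24 (adjusted p = 0.0733, 0.533 and 0.267), and the brightest probe of Pcdh9 gave 0.23.

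**Figure D3:**
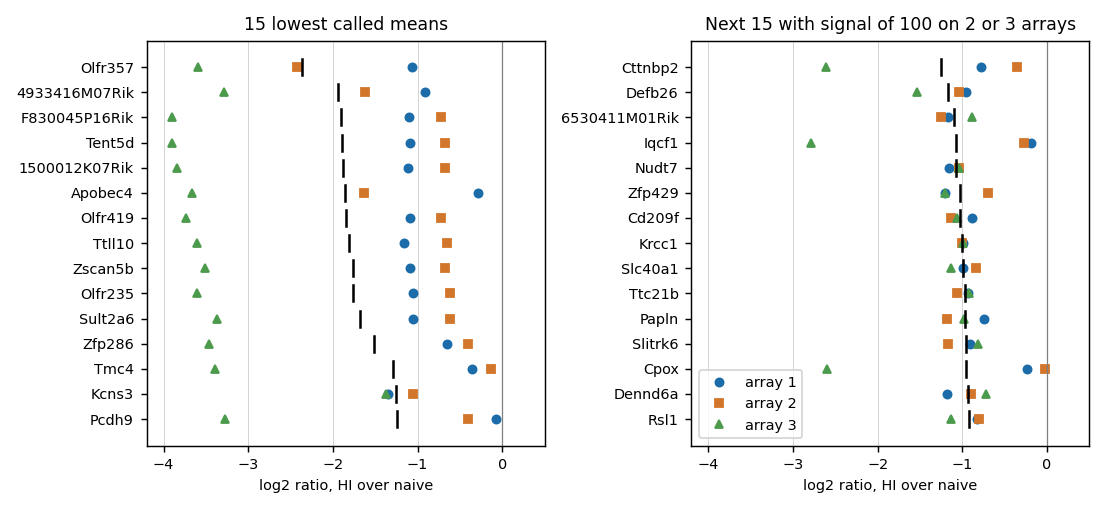
Log2 ratio of HI over naive on each P10 array at 3 h, with a bar at the mean, for the 15 repressed genes with the lowest means (left) and the next 15 with a mean signal of 100 on 2 or 3 arrays (right). On the left array 3 lies between -3.90 and -1.37 while array 1 never falls below -1.35; Kcns3 on the left, and Nudt7 and Krcc1 on the right, have 3 arrays close together.

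Another set of repressed genes was even across the arrays. Kcns3, a modifier subunit of voltage-gated potassium channels, went from 154, 141 and 160 to 60.4, 67.9 and 62.1, a 2.39-fold fall (-1.26 ± 0.18, adjusted p = 8.37e-06). Nudt7, a peroxisomal enzyme that hydrolyses coenzyme A, went from 531, 521 and 447 to 238, 254 and 217 (-1.08 ± 0.07). Krcc1 gave -0.99, -1.0 and -0.99 from naive signals of 3060, 3090 and 2650 (adjusted p = 9.72e-08). In all 3 genes the lowest naive pool was above the highest HI pool. Others of similar size were the iron exporter Slc40a1, or ferroportin (-0.99 ± 0.15), the neuronal membrane protein Slitrk6 (337, 406 and 334 to 179, 180 and 191, -0.96 ± 0.19), the cilium gene Ttc21b (-0.97 ± 0.08), the lectin receptor Cd209f (-1.03 ± 0.13) and the zinc finger genes Zfp429 (-1.03 ± 0.29) and Rsl1 (-0.92 ± 0.19). Papln gave -0.97 ± 0.22, but in naive brain its probe differed by -0.65 between the dyes, and with this dye bias taken out it gave -0.32 (adjusted p = 0.351). Sphk1, which makes sphingosine 1-phosphate, was repressed at -0.51, -0.43 and -0.97, and without array 3 gave -0.47 (adjusted p = 0.0825). Under normexp and loess Kcns3 (-0.36), Slc40a1 (-0.49), Slitrk6 (-0.52), Ttc21b (-0.37), Zfp429 (-0.31), Rsl1 (-0.45), Papln (-0.55) and Sphk1 (-0.48) were lower by less than 1.5-fold.

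At P5 the same time after HI gave 341 induced and 81 repressed genes. Of the 616 genes induced at P10, 202 were also induced at P5, which is 32.8% of the P10 and 59.2% of the P5 genes, and 29 of the 256 repressed genes were repressed at P5 (11.3% and 35.8%). No gene was called in opposite directions. Among all genes with a RefSeq name, 2.24% were induced and 0.580% repressed at P5. Of the 22 induced immediate early genes 18 were also induced at P5, as were 6 of the 8 cytokines and chemokines and 7 of the 8 vascular genes. The counts were 1 of the 6 cholesterol genes and 0 of the 3 neuron markers, but no gene of these lists passed the test of the difference between ages given below. Fos reached 5.67 ± 0.31 at P5 (difference -0.09, adjusted p = 0.902). The difference between ages itself was tested over 13662 genes, of which 11 had a higher HI effect at P10 (0.0805%) and 10 a lower one (0.0732%). P5 and P10 arrays were on different slides, so that slide and age cannot be told apart, and with slide as a random block 86 and 24 genes passed.

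The genes with a higher HI effect at P10 included the chaperone Hspa8, whose probe with the largest difference gave 1.26, 1.42 and 0.83 at P10 and -0.25, 0.07 and -0.21 at P5 (difference 1.30, SE 0.25, adjusted p = 0.0466). This was its only probe called for the difference. The probe with its largest change at P10 was above 0 on every P5 array (0.123, 0.145 and 0.552). The lipoprotein lipase gene Lpl gave 0.93, 1.01 and 0.93 against -0.14, 0.03 and 0.03 (0.98, adjusted p = 0.0495). Nfil3 rose at both ages but more at P10, with 1.76, 1.95 and 1.98 against 1.21, 1.15 and 1.16 (0.72, adjusted p = 0.0217). In none of these genes did the arrays of both ages overlap. The difference with the lowest adjusted p was that of Hacd2, an enzyme of long-chain fatty acid synthesis (0.79, adjusted p = 0.00857), which was at 0.48 ± 0.11 at P10 and -0.31 ± 0.10 at P5. Eno1 was induced at P10 but gave 0.07 ± 0.15 at P5 (difference 0.74), and the membrane fusion ATPase Nsf (0.85) and the protease inhibitor Timp2 (0.81) had the same pattern. For Gapdh the difference of 0.70 did not pass (adjusted p = 0.0688).

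In the opposite direction, the ribosomal protein gene Rpl14 gave -0.86, -0.43 and -0.54 at P10 and 0.34, 0.59 and 0.41 at P5 on the probe with the largest difference (-1.06, adjusted p = 0.0383), while the brightest probe of the gene gave a ratio of 0.10 at P10. Osgin1, an oxidative stress gene, was at 0.99, 0.99 and 0.68 at P5 and within 0.09 of 0 on each P10 array (-0.90, adjusted p = 0.0466). Rdm1, a DNA repair gene, was repressed at P10, with -1.25, -0.52 and -0.91, and gave -0.13, -0.11 and 0.13 at P5 (-0.86). Several large effects did not differ by the test: Klf4 was at 2.39 ± 0.40 at P5 and 1.00 ± 0.11 at P10 (-1.39, adjusted p = 0.075), and Fosb at 3.84 at P5 (difference -1.0, adjusted p = 0.114). These differences depended on every array, since the counts fell to between 0 and 3 higher and between 0 and 2 lower when any 1 array of either age was left out.

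**Figure D4:**
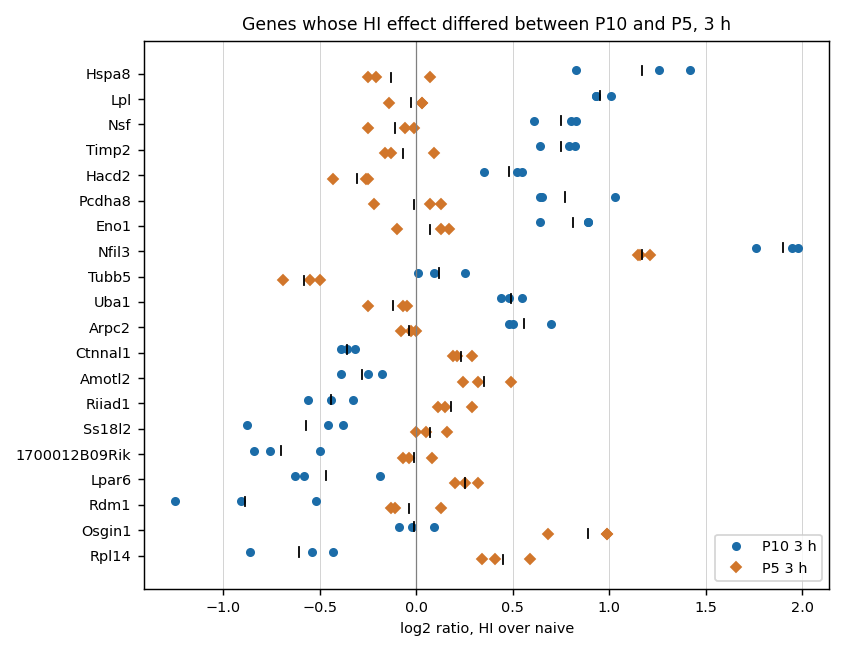
Log2 ratio of HI over naive at 3 h on each P10 (circles) and P5 (diamonds) array, with bars at the means, for the 20 genes with a RefSeq name whose HI effect differed between the ages. Arrays of the 2 ages do not overlap in any of the genes on the probes shown; Hspa8 has the largest difference upwards, 1.30 on 1 of its probes, and Rpl14 the largest downwards, -1.06.

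The 3 h response was partly kept at 6 h. Of the 616 induced genes 426 were induced at 6 h (69.2%, and 34.3% of the 1242 genes induced then), 221 at 12 h (35.9%) and 263 at 24 h (42.7%). Repression was seen again in 134 of the 256 repressed genes at 6 h (52.3%), in 62 at 12 h (24.2%) and in 60 at 24 h (23.4%). Among all genes with a RefSeq name, 7.62%, 6.68% and 11.8% were induced and 7.39%, 4.60% and 7.25% repressed at 6, 12 and 24 h. The gene groups differed in how many members were called again. All 8 induced cytokines and chemokines were induced at 6 h and 7 of them at 12 and at 24 h, and the vascular genes gave the same counts. Of the 22 immediate early genes 17, 14 and 11 were induced at 6, 12 and 24 h, of the 9 MAP kinase regulators 4, 2 and 2, and of the 6 cholesterol genes 3, 0 and 0. The cholesterol list turned to repression later: 9 of 24 tested genes were repressed at 12 h, 1 of them induced at 3 h, and 5 of 23 at 24 h. Repressed genes in the immediate early list were 0, 0 and 1 at 6, 12 and 24 h, and in the MAP kinase list 0, 1 and 1.

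Single genes show these courses in their means. None of the genes named in this paragraph passed the test of 6 h against 3 h given below. The later times were not tested against 3 h. Fos fell stepwise from 5.58 at 3 h to 4.24 ± 0.23, 2.92 ± 0.50 and 1.85 ± 0.74 and was still induced at 24 h. Ccl4 went from 4.87 to 6.13 ± 1.25, 6.93 ± 0.63 and 5.52 ± 0.56, and Cxcl10 from 3.72 to 6.82 ± 1.56, 7.40 ± 0.86 and 7.04 ± 0.96. Both chemokines thus had their lowest mean at 3 h. Timp1 went from 1.34 to 2.36, 2.97 and 3.22, whereas Adm had 2.11, 2.29, 1.49 and 0.61. Insig1 crossed zero, with 1.08 and 0.75 at 3 and 6 h and -0.16 and -0.55 at 12 and 24 h (adjusted p = 0.00601 at 24 h, under 1.5-fold). Gpr34 was lowest at 6 h (-1.14) and back at -0.01 at 24 h.

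**Figure D5:**
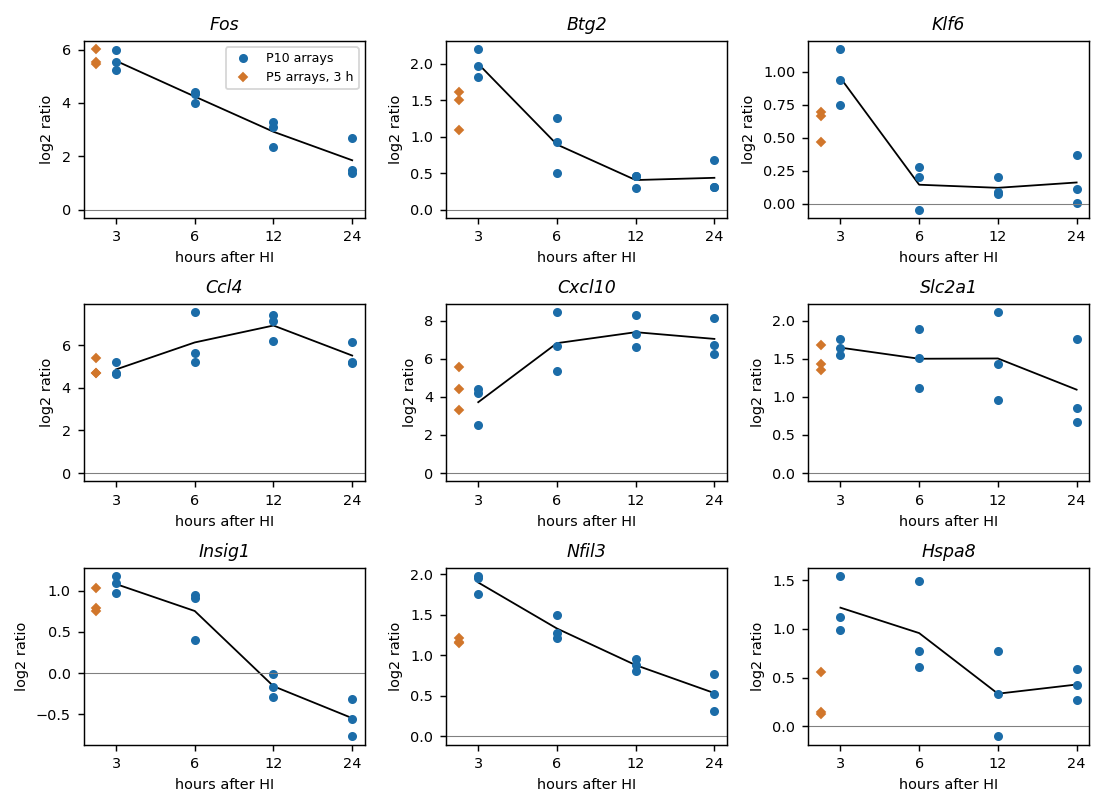
Log2 ratio of HI over naive of 9 genes on each P10 array at 3, 6, 12 and 24 h (circles, the line joins the means, hours evenly spaced by time point) and on the P5 arrays at 3 h (diamonds). Fos, Btg2 and Klf6 are highest at 3 h, Ccl4 and Cxcl10 at 12 h, Slc2a1 is never below 0.671, and Insig1 is below 0 on every array at 12 and 24 h.

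Tested directly over 15365 genes, 4 had a lower HI effect at 6 h than at 3 h (0.0260%) and 0 a higher one. For the higher direction 556 genes passed 1.5-fold at an unadjusted p under 0.05, and the methods' t-test after adjustment gave 0 as well. The arrays of 3 h and 6 h with the same number shared a slide, and with the replicate as a block 54 genes were higher and 200 lower at 6 h. Hes5, a target of Notch that keeps neural progenitors undifferentiated, was near 0 at 3 h (-0.37, 0.26 and 0.03) and low at 6 h (-1.38, -1.27 and -1.87), a difference of -1.48 (SE 0.18, adjusted p = 0.00289). Btg2 (-1.11, adjusted p = 0.0427) and the zinc finger factor Klf6 (-0.81, adjusted p = 0.0142) were induced at 3 h and less so at 6 h. Klf6 gave 0.75, 0.93 and 1.17 at 3 h and -0.04, 0.20 and 0.28 at 6 h, with no overlap. Flrt3, an adhesion molecule, went from 0.01, 0.35 and 0.45 to -0.72, -0.35 and -0.41 (-0.76, adjusted p = 0.0427). The count of lower effects was 149, and of higher effects 18, without array 3 of the 6 h group, and the lower count was 15 without array 1 and 1 without array 2 or 3 of the 3 h group.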

How the data were processed

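The authors hybridised 2-colour Agilent whole mouse genome arrays and deposited Feature Extraction 10.5.1.1 output, whose processed signals are intensities that the authors' scanner software had background-subtracted and normalised between dyes (Lowess). The log10 ratio column of the deposited files, computed by the same program, was read only to check the scale of the deposited series table. The log2 ratio of red (HI) over green (naive) was taken per probe after leaving out control and outlier spots. A probe was tested if its mean signal reached 100 in one channel and at least 2 arrays gave a ratio. On the 39429 probes, 27427 had a RefSeq name through their accession and the others kept the name in the files. The series table deposited by the authors holds the same log10 ratios and served, converted to log2, as an alternative.

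Ratios of all 24 HI arrays were fitted with limma 3.58.1 (R 4.3.3; Python 3.11.15) on group means with 16 residual degrees of freedom. The groups were tested against 0, or against each other, with Benjamini-Hochberg adjustment over 18291 probes at 3 h. A gene was called if 1 probe passed an adjusted p of 0.05 and 1.5-fold. Its value is that of the tested probe with the largest mean change, and list medians use the brightest probe. Where the naive signal was not well above background on any array, the fold is from means of log2 signals. It is an estimate and no lower limit. Each array holds pools of different pups, and the number of arrays limits the precision. Probes well above background made up 61.91% to 70.06% of the naive and 68.86% to 76.16% of the HI channel. Dye bias was estimated from the dye-swapped naive arrays of P2 and P15 brain. Deviations of 3 h and 6 h arrays of the same number, which shared a slide, correlated at 0.423, 0.495 and 0.226 across probes. The comparisons and gene lists were chosen with earlier results of these data known. Genes named are the members of the lists and those with the largest changes. On simulated data with independent normal noise, 50, 48, 48 and 50 of 50 probes changed by -1.5, -1, 1 and 1.5 (log2) were recovered at 3 h. Of the unchanged probes 2 were called. Changes as small as the median induction of 1.655-fold were not simulated, nor was the correlation of arrays that shared a slide. Some genes are not reported here.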

Additional observations from a re-analysis of the deposited data

Results flagged for a closer look

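Of the genes named, 16 between ages and 4 between times had a difference of the HI effect that passed the test of the difference itself. Between ages at 3 h (P10 minus P5, log2), the higher effects at P10 were 1.30 for Hspa8, 0.98 for Lpl, 0.85 for Nsf, 0.81 for Timp2, 0.79 for Hacd2, 0.78 for Pcdha8, 0.74 for Eno1 and 0.72 for Nfil3. The lower effects were -1.06 for Rpl14, -0.90 for Osgin1, -0.86 for Rdm1, -0.72 for Lpar6, -0.69 for 1700012B09Rik, -0.64 for Ss18l2, -0.63 for Riiad1 and -0.63 for Amotl2. Within P10, the effect at 6 h was lower than at 3 h by a difference of -1.48 for Hes5, -1.11 for Btg2, -0.81 for Klf6 and -0.76 for Flrt3. The difference of Hspa8 passed on 1 of its probes only. Age and slide cannot be told apart in the first set.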

How the results depend on the processing

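The 616 induced and 256 repressed genes at 3 h became 1190 and 1050 with no signal filter, 2379 and 1845 with no fold minimum, and 266 and 79 with normexp background correction and loess. A filter on probes well above background gave 1174 induced genes. The methods' t-test gave 0 in both directions after Benjamini-Hochberg adjustment, where 540 and 242 passed unadjusted. Leaving out 1 array gave 473 to 700 induced and 228 to 269 repressed genes. The other alternatives kept both counts within 1.5 times.

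The 11 higher and 10 lower effects at P10 against P5 became 196 and 131 in a fit of only the arrays compared, 86 and 24 with slide as a random block, 200 and 84 with the replicate number as a block, and 250 and 172 by the methods' t-test unadjusted. At an unadjusted p (chosen after seeing the data) they were 257 and 150. The counts were 4 and 2 with the filter on background, 0 and 1 with normexp and loess, and 0 and 0 with no signal filter and by the adjusted t-test. With the brightest probe per gene 7 were higher. Leaving out 1 array gave 0 to 3 and 0 to 2. Same-numbered P10 and P5 arrays correlated at -0.0368, -0.048 and 0.233, so that they share only a number.

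The 0 higher and 4 lower effects at 6 h became 43 and 186 with slide as a random block, 54 and 200 with the replicate block, 3 and 7 with the background filter, 510 and 183 by the unadjusted t-test and 556 and 305 at an unadjusted p. The lower count was 2 with no signal filter, 1 with normexp and loess, and 0 with only the arrays compared and by the adjusted t-test. Leaving out 1 array gave 0 to 18 and 1 to 149. The cause of these changes was not tested, apart from the fewer or added probes and arrays that each setting brings.

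On the brightest probe, the ratio at 3 h was 0.23 for Pcdh9, 0.10 for Rpl14, 0.15 for Ss18l2 and 0.09 for Zfp286, above 0 where the reported probe was below. Leaving out 1 array moved Hes5 between -0.17 and 0.15 and Osgin1 between -0.06 and 0.04 at 3 h. With the dye bias taken out 14 genes named here lost and 3 gained a call, and 181 stayed on their side of the threshold. Besides Mbp and Papln, calls were lost by Slc2a3 (0.50), Ldha (0.55), Homer1 (0.53), Sgk1 (0.52), Dusp6 (0.55) and Bdnf (0.58). The same held for Tnfrsf1a (0.57), Slc1a2 (0.56), Olig2 (-0.56), Sphk1 (-0.48) and 1700012B09Rik (-0.58).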

Other observations

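Genes of the sex chromosomes varied between arrays without being called. Xist gave -0.15, 1.72 and 1.93 on the 3 arrays (adjusted p = 0.516), Ddx3y -0.32, -1.18 and -0.30 (adjusted p = 0.662) and Eif2s3y -0.57, -0.94 and 0.03 (adjusted p = 0.72). On array 2 the values of all these genes go against the sex matching that the methods state, and on array 3 that of Xist only. Their part in other results was not tested.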
